A study of Mus musculus with 22 samples.

Results

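The transcription factor genes described here were Zic1, Zic2, Zic4, Zic5, Pax6, Neurod1, Neurod2, Neurod6 and Prox1, which were chosen by gene symbol as factors known from the granule neurons of the cerebellum and the dentate gyrus. They were 9 of the 55385 genes in the deposited tables, and 51 of the 142552 transcripts belonged to them. The libraries held mRNA from ribosomes that carried an HA-tagged large-subunit protein (Rpl22), a method known as RiboTag, in which a Cre driver switches on the tag in 1 cell population and the tagged ribosomes are pulled from whole-tissue lysate. Mice descended from RiboTag females of the strain B6N.129-Rpl22tm1.1Psam/J. Every mouse carried 1 floxed Rpl22 allele (Rpl22 Fl/+) together with a Cre driver, and tissue was taken at 6 weeks of age. Cerebellar granule cells came from cerebellum with Gabra6-Cre, dentate gyrus granule cells from hippocampus with Rbp4-Cre, layer V pyramidal neurons from cortex with the same Rbp4-Cre, and inhibitory interneurons from hippocampus with Dlx6a-Cre. Astrocytes came from cortex with the driver labelled Aldh1-cre and microglia from cortex with Tmem119-cre, both of which are tamoxifen-inducible lines by the study's methods. By the same methods, tamoxifen was given to mice of inducible lines by oral gavage, starting at the age of 3 weeks. Tamoxifen treatment thus coincided with the glial cell types. Each cell type had 3 biological replicates, and each interneuron replicate was pooled from 2 mice. A Cre driver marks every cell in the dissected tissue that uses its promoter, so a population is defined by driver and region rather than by shape or position of the cells.

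Zic genes encode zinc finger proteins that bind DNA and act in the progenitors and the mature granule neurons of the cerebellum. Pax6 encodes a paired box and homeodomain protein of the rhombic lip, from which cerebellar granule neurons arise, and of the cortical progenitor zone. Neurod1, Neurod2 and Neurod6 encode basic helix-loop-helix proteins that pair with E proteins and drive neuronal differentiation and survival, and Prox1 encodes a homeodomain protein that sets and maintains the identity of dentate gyrus granule neurons.

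The 18 libraries in the comparisons held 38270477 to 71440915 estimated counts each, and all 9 genes reached 10 counts in at least 17 of them. Interneuron and microglia libraries were all sequenced in batch 2 and the other 12 in batch 1, with 4 replicates sequenced in both batches. Between those repeats, the 21 values at or above 5 TPM (kallisto's unit of transcript level, corrected for transcript length and scaled to a fixed total per library) differed by at most 1.12-fold, and the 15 lower ones by at most 1.73-fold. The marker lists of the dentate gyrus, interneuron, astrocyte and microglia populations had every gene highest in their own libraries, and that of the cerebellar granule cells 4 of 5. The layer V list did not single out its own libraries. Of its 5 markers, 1 was highest there, 2 in interneurons, 1 in dentate gyrus granule cells and 1 in cerebellar granule cells. Its sum was 292 to 309 TPM in layer V neurons and overlapped that in dentate gyrus granule cells, 271 to 308 TPM. In cerebellar granule cells, which express Etv1, it was 712 to 745 TPM. Oligodendrocyte markers summed to 2610 to 2800 TPM in the interneuron libraries, and forebrain excitatory neuron markers to 873 to 1150 TPM in astrocytes and 562 to 681 TPM in microglia. Choroid plexus and ependyma markers summed to 3640, 11.5 and 18.7 TPM in astrocyte replicates 1, 2 and 3. Markers of unipolar brush cells summed to 31.7 to 39.0 TPM in cerebellar granule cells and to at most 2.38 TPM elsewhere. The part of these cells in the levels of the 9 genes was not tested.

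The Zic genes lie in pairs on the genome (GRCm38). Zic1 (chr9:91358058-91365810, minus strand) and Zic4 (chr9:91362413-91389348, plus strand) overlap by 3398 bases on opposite strands, of which 60 bases are exonic in both. Zic5 (chr14:122456795-122465677, minus strand) and Zic2 (chr14:122475435-122479852, plus strand) are separated by 9757 bases. Their zinc finger regions are near-identical in stretches, which matters for telling their reads apart, and for that reason 90 coding bases around the longest run shared by 2 of the genes are shown, each inside 1 exon. Zic1 is in lower case and capitals mark bases identical to Zic1, at chr9:91364226-91364315 (minus strand) for Zic1, chr14:122476468-122476557 (plus strand) for Zic2, chr9:91379123-91379212 (plus strand) for Zic4 and chr14:122464082-122464171 (minus strand) for Zic5, each read 5′ to 3′ in the direction of transcription.
Zic1: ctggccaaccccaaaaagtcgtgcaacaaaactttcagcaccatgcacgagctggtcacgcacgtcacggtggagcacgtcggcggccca
Zic2: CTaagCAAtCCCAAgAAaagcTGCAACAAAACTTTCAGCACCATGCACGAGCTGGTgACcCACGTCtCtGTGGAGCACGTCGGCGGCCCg
Zic4: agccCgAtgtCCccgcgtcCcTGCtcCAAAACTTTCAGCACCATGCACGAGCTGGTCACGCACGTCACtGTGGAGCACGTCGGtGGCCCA
Zic5: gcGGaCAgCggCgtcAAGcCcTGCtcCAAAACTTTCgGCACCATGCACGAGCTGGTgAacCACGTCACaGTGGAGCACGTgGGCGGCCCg
Zic2 was identical to Zic1 at 76 of 90 bases (84.4%), and Zic4 and Zic5 each at 70 (77.8%). The longest identical run with Zic1 was 35 bases in Zic2, 42 in Zic4 and 19 in Zic5. Over whole transcripts, Zic1 shared 9 of its 5677 words of 31 bases (0.159%) with Zic2 and 13 (0.229%) with Zic4 on the same strand, 31 bases being the usual word length at which kallisto matches reads. Of the 36 pairs among the 9 genes, 4 shared any such word on the same strand. On opposite strands Zic1 and Zic4 shared 33 words, Zic1 and Neurod6 4, and Zic5 and Pax6, Zic5 and Neurod2, and Pax6 and Neurod6 2 each.

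Zic1 was the most strongly expressed Zic gene in cerebellar granule cells, at 1030, 1010 and 974 TPM (mean 1004 ± 27.9, SD, n = 3). Interneurons followed at 36.4, 29.8 and 2.16 TPM, then microglia at 9.13, 7.64 and 10.2 TPM and astrocytes at 6.07, 7.20 and 8.83 TPM. Dentate gyrus granule cells held 1.05, 0.756 and 1.21 TPM and layer V neurons 0.400, 0.636 and 0.375 TPM. Every cerebellar library thus lay far above all others, and the mean was 44.1 times that of the next cell type. Interneurons overlapped both microglia and astrocytes, and microglia overlapped astrocytes. In these bulk libraries, fewer cells that express a gene and less of its RNA per cell cannot be told apart.

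Zic2, which lies beside Zic5 and is also needed for forebrain midline development, stood at 627, 633 and 552 TPM in cerebellar granule cells (604.2 ± 45.0). The next values were 18.8, 22 and 21.3 TPM in astrocytes, 28.9, 21.4 and 1.81 TPM in interneurons and 14.0, 8.06 and 12.4 TPM in microglia. Layer V neurons held 2.93, 2.87 and 3.16 TPM and dentate gyrus granule cells 2.29, 2.90 and 1.24 TPM. The cerebellar mean was 29.2 times that of astrocytes. Interneurons overlapped astrocytes, microglia, layer V neurons and dentate gyrus granule cells. Layer V neurons also overlapped dentate gyrus granule cells, so that no order can be read within those pairs.

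Zic4 and Zic5 were expressed at a much lower level, with 48.0, 51.2 and 50.5 TPM for Zic4 and 52.5, 55.2 and 54.6 TPM for Zic5 in cerebellar granule cells. Zic4, whose loss together with Zic1 is known for cerebellar malformation, followed in interneurons at 9.48, 6.95 and 1.25 TPM, microglia at 4.43, 2.47 and 4.54 TPM and astrocytes at 3.11, 3.22 and 3.25 TPM. Zic5 followed in astrocytes at 7.16, 6.92 and 8.28 TPM, interneurons at 6.23, 4.24 and 0.393 TPM and microglia at 0.761, 0.877 and 1.79 TPM. Neither gene exceeded 0.763 TPM in a dentate gyrus or layer V library. The cerebellar mean was 8.47 times the next for Zic4 and 7.26 times for Zic5. Interneurons overlapped microglia for both genes. For Zic4, interneurons and microglia also overlapped astrocytes. For Zic5, interneurons, dentate gyrus granule cells and layer V neurons overlapped each other.

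Summed over the 4 genes, cerebellar granule cells held 1710 ± 69.8 TPM of Zic mRNA, of which Zic1 made up 58.7%, Zic2 35.3%, Zic4 2.92% and Zic5 3.16%. The sum was 49.7 ± 39.3 TPM in interneurons, 38.7 TPM in astrocytes, 25.4 TPM in microglia, 4.22 TPM in dentate gyrus granule cells and 3.89 TPM in layer V neurons. In astrocytes Zic2, not Zic1, made up the largest share, at 53.5%.

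Zic4 counts could include reads of Zic1 where both genes share exon bases on opposite strands, because whether strand was used in quantification is not given in the sources used here. Only 1 of the 12 Zic4 transcripts holds those bases. Without it, the mean Zic4 level was 48.8 TPM in cerebellar granule cells, 4.56 TPM in interneurons, 3.72 TPM in microglia, 2.51 TPM in astrocytes, 0.551 TPM in dentate gyrus granule cells and 0.0936 TPM in layer V neurons. The order of the 6 cell types was the same with and without that transcript.

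Pax6 (chr2:105668900-105697364, plus strand) stood at 252, 268 and 254 TPM in cerebellar granule cells (258.2 ± 8.59) and at 52.9, 51.3 and 58.7 TPM in astrocytes. Interneurons held 2.69, 4.52 and 2.81 TPM, microglia 2.47, 2.62 and 3.52 TPM, dentate gyrus granule cells 1.66, 2.10 and 1.86 TPM, and layer V neurons 0.814, 0.932 and 1.46 TPM. Cerebellar granule cells were thus first and astrocytes second without any overlap, with a ratio of means of 4.75. Among the other 4 populations, interneurons overlapped microglia.

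Neurod1 (chr2:79452521-79456751, minus strand), which is needed for granule neurons of both the cerebellum and the dentate gyrus to form and survive, reached 954, 925 and 934 TPM in cerebellar granule cells (937.6 ± 14.5). Dentate gyrus granule cells held 44.7, 48.2 and 45.7 TPM and layer V neurons 11.3, 12.1 and 12.0 TPM. Both granule cell types were therefore above layer V neurons, with a 20.3-fold step between the cerebellar and the dentate gyrus mean. Astrocytes (1.42 to 1.88 TPM), microglia (0.735 to 1.02 TPM) and interneurons (0.627 to 0.975 TPM) were lower, and the last pair overlapped.

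Neurod2 (chr11:98325415-98329648, minus strand), a factor of maturing excitatory neurons and their synapses, was abundant in all 3 excitatory populations. It stood at 335, 388 and 309 TPM in dentate gyrus granule cells (344.0 ± 40.2), 248, 257 and 225 TPM in cerebellar granule cells (243.7 ± 16.4) and 129, 118 and 108 TPM in layer V neurons (118.5 ± 10.1). The ranges did not overlap, but the step from dentate gyrus to cerebellum was only 1.41-fold. Astrocytes held 14.6, 13.7 and 9.64 TPM, microglia 9.24, 11.8 and 11.2 TPM, and interneurons 5.63, 5.57 and 6.75 TPM. Astrocytes overlapped microglia.

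Neurod6 (chr6:55677822-55681263, minus strand), known from pyramidal neurons of the neocortex and hippocampus, was the gene of the set that favoured layer V neurons, at 146, 138 and 151 TPM (144.8 ± 6.75). Dentate gyrus granule cells followed at 17.0, 20.1 and 42.4 TPM and astrocytes at 17.6, 18 and 12.1 TPM, and these ranges overlapped. Microglia at 5.61, 7.93 and 7.90 TPM also overlapped interneurons at 6.33, 6.77 and 6.89 TPM. Cerebellar granule cells were lowest at 0.203, 0.3 and 0.0968 TPM, which rested on 10, 11 and 4 estimated counts.

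The coding sequences of the Neurod genes are shown around the longest run that 2 of them share, over 90 bases that encode part of the helix-loop-helix region, to make plain how close the 3 genes with such different cell types are. Neurod1 is in lower case and capitals mark identity to Neurod1, at chr2:79454549-79454638, chr11:98327785-98327874 for Neurod2 and chr6:55679183-55679272 for Neurod6, all on the minus strand.
Neurod1: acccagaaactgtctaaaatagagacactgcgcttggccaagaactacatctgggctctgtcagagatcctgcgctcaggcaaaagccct
Neurod2: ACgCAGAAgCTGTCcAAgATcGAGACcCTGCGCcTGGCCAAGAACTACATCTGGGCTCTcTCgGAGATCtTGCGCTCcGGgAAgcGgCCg
Neurod6: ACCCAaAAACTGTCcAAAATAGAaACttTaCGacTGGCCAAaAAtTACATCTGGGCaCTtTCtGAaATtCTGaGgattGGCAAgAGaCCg
Neurod2 matched Neurod1 at 74 of 90 bases (82.2%) and Neurod6 at 67 (74.4%). The longest identical run was 25 bases in Neurod2 and 11 in Neurod6, under the word length of 31, and no pair of Neurod genes shared a word of that length anywhere in their transcripts.

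The balance within the Neurod family therefore differed between the excitatory populations. Cerebellar granule cells held 1180 ± 21.1 TPM of Neurod mRNA, with 79.4% Neurod1, 20.6% Neurod2 and 0.0169% Neurod6. Dentate gyrus granule cells held 417 ± 34.4 TPM, with 11.1% Neurod1, 82.4% Neurod2 and 6.45% Neurod6. Layer V neurons held 275 ± 9.27 TPM, with 4.30% Neurod1, 43.0% Neurod2 and 52.7% Neurod6. Each of the 3 populations thus had another leading gene, Neurod1 in the cerebellum, Neurod2 in the dentate gyrus and Neurod6 in layer V.

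Prox1 (chr1:190118035-190170714, minus strand) was the gene of the set that marked the dentate gyrus, at 170, 179 and 152 TPM (167.0 ± 13.5). Cerebellar granule cells held 27.9, 29.0 and 29.7 TPM and interneurons 12.1, 15.1 and 14.6 TPM. Microglia (2.38 to 2.83 TPM), astrocytes (2.06 to 2.37 TPM) and layer V neurons (0.304 to 0.585 TPM) were lower. No neighbouring cell types overlapped in the 18 libraries, but microglia and astrocytes came close, and the astrocyte repeat library of batch 2, at 2.41 TPM, lay inside the microglial range. The antisense gene Prox1os, which overlaps Prox1 by 419 bases with 133 exonic bases in common, stood at 35.4, 38.1 and 37.3 TPM in dentate gyrus granule cells and at 2.79, 2.94 and 3.96 TPM in cerebellar granule cells, and reads of the shared bases cannot be told apart without strand.

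**Figure D1:**
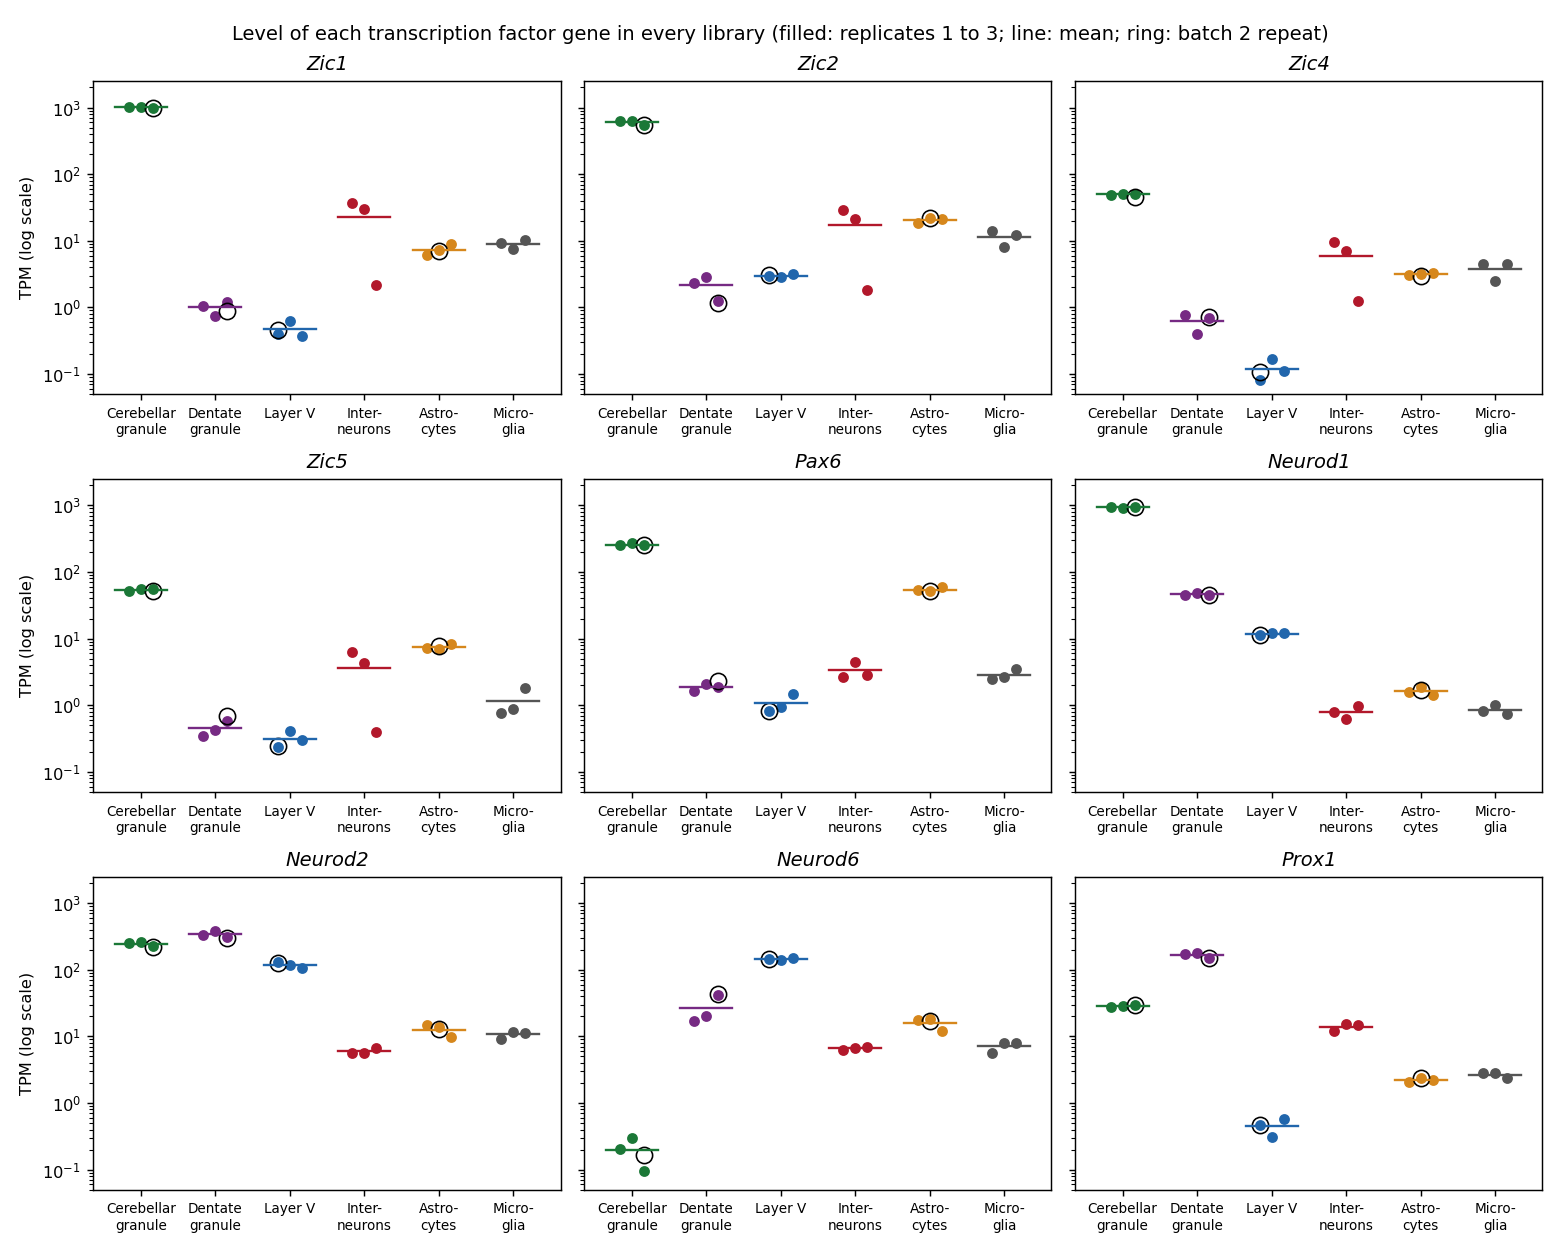
Level of each of the 9 genes in every library, in TPM on a log axis. Filled points are replicates 1 to 3 of a cell type in that order, lines their means, and rings the 4 repeat libraries of batch 2. The cerebellar granule cell points stand apart for the Zic genes, Pax6 and Neurod1, the dentate gyrus points for Prox1 and the layer V points for Neurod6, and interneuron replicate 3 lies below replicates 1 and 2 in the Zic panels.

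The panels of level by library show the same split at a glance. Of the 9 genes, 6 were highest in cerebellar granule cells, 2 (Neurod2 and Prox1) in dentate gyrus granule cells and 1 (Neurod6) in layer V neurons, and none was highest in interneurons, astrocytes or microglia. The genes were chosen as factors known from granule neurons. How all genes divide between the cell types by this measure was not worked out, so these counts only describe the set.

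The direct comparison of the 2 granule cell types asked how far these cells, which share a name and a small round form, differ in the factors known from both. With edgeR's quasi-likelihood test and Benjamini-Hochberg adjustment over 20843 genes, 6 of the 9 genes were higher in cerebellar granule cells by at least 2-fold at an adjusted p of 0.05 or less, where 14.2% of all genes tested were. Another 2 were lower, where 27.5% of all genes were. The median log2 fold change was 6.83 for the 9 genes and -0.15 for all genes tested.

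Zic1 had the largest difference, with a log2 fold change of 10.38 ± 0.79 (SE, adjusted p = 1.3e-09), followed by Zic2 at 8.41 ± 0.69, Zic5 at 7.68 ± 0.61 and Zic4 at 6.83 ± 0.56. Pax6 was higher by 7.12 ± 0.20 (adjusted p = 8.3e-16) and Neurod1 by 4.43 ± 0.09 (adjusted p = 5.7e-18). In the other direction, Neurod6 had a log2 fold change of -6.97 ± 0.40 (adjusted p = 2.4e-11) and Prox1 of -2.42 ± 0.12 (adjusted p = 5.1e-12). Neurod2 differed by -0.35 ± 0.11 (adjusted p = 0.007), which stayed under 2-fold.

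Against layer V neurons, cerebellar granule cells had 7 of the 9 genes higher, where 17.1% of all genes were, and 1 lower, where 29.3% were, with a median of 7.33 against -0.23 over all genes. The log2 fold changes were 10.77 ± 0.80 for Zic1, 8.63 ± 0.64 for Zic4, 7.54 ± 0.65 for Zic2, 7.33 ± 0.58 for Zic5 and 7.91 ± 0.21 for Pax6. Neurod1 was higher by 6.12 ± 0.09 (adjusted p = 3.6e-19). Prox1, which was lower than in the dentate gyrus, was higher than in layer V by 5.83 ± 0.16 (adjusted p = 7.9e-16). Neurod6 was lower at -9.72 ± 0.39 (adjusted p = 1.1e-13), and Neurod2 at 0.91 ± 0.11 (adjusted p = 5.4e-07) again missed 2-fold, although limma on log2(TPM + 0.5) gave 1.04 (adjusted p = 2.5e-06) and thus 8 higher genes. Since both comparisons share the cerebellar libraries, their values are given side by side and not as support for each other.

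Dentate gyrus granule cells and layer V neurons carried the same Cre driver and differed by region. Of the 9 genes, 3 were higher in the dentate gyrus, where 12.2% of all genes were, and 1 was lower, where 13.8% were (median 0.79 against 0.00). Prox1 led with a log2 fold change of 8.25 ± 0.17 (adjusted p = 3.3e-16), then Neurod1 at 1.69 ± 0.08 (adjusted p = 6.3e-12) and Neurod2 at 1.26 ± 0.11 (adjusted p = 1.5e-08). Neurod6 was lower at -2.75 ± 0.23 (adjusted p = 9.4e-09). Pax6 differed by 0.79 ± 0.26 (adjusted p = 0.012), under 2-fold and at no more than 2.10 TPM. Within batch 2, with 1 library of each type that is assumed to vary like the other groups, Neurod2 was 0.96 and thus just under 2-fold.

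The Zic genes were close to their floor in both of these populations and none was called, with 0.39 ± 0.88 for Zic1, -0.88 ± 0.68 for Zic2, 1.80 ± 0.96 for Zic4 and -0.35 ± 0.84 for Zic5 (adjusted p 0.12 to 0.74). The fit shares 1 estimate of the spread over all 18 libraries. Without interneuron replicate 3, which is no part of the comparison, Zic4 stood at 1.84 ± 0.35 and passed (adjusted p = 0.00021), and with the 12 batch 1 libraries alone at 1.81 ± 0.18 (adjusted p = 9.5e-07). The levels behind that call were 0.402 to 0.763 TPM in dentate gyrus granule cells and 0.0824 to 0.169 TPM in layer V neurons. Both of these fits were added after the data had been seen. Of the alternatives chosen earlier, 3 also called Zic4, namely no filter on low counts (1.80, adjusted p = 0.021), batch as a term (1.86, adjusted p = 0.048) and DESeq2 (1.80, adjusted p = 0.0082).

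In the hippocampus, dentate gyrus granule cells and Dlx6a-Cre interneurons differed in 8 of the 9 genes. The dentate gyrus had 4 higher, where 12.4% of all genes were, and 4 lower, where 15.7% were (median -0.77 against 0.00). The 3 Neurod genes and Prox1 were the higher ones, with 5.92 ± 0.11 for Neurod1, 5.86 ± 0.14 for Neurod2, 2.04 ± 0.24 for Neurod6 and 3.63 ± 0.13 for Prox1. The 4 Zic genes were the lower ones, with -4.69 ± 0.69 for Zic1 (adjusted p = 9.3e-06), -3.19 ± 0.62 for Zic2, -3.31 ± 0.57 for Zic4 and -3.42 ± 0.64 for Zic5. The library ranges overlapped for Zic2 and Zic5, because interneuron replicate 3 (1.81 and 0.393 TPM) lay within the dentate gyrus range. Pax6 at -0.77 ± 0.22 (adjusted p = 0.0048) was under 2-fold. Cell type and batch coincide in this fit. Batch 2 holds 1 dentate gyrus library, which a fit within that batch assumes to vary like the other groups. That fit gave -4.73 for Zic1 (adjusted p = 0.02), -4.05 for Zic2 (adjusted p = 0.029) and -2.79 for Zic4, just past the threshold (adjusted p = 0.05 after rounding).

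**Figure D2:**
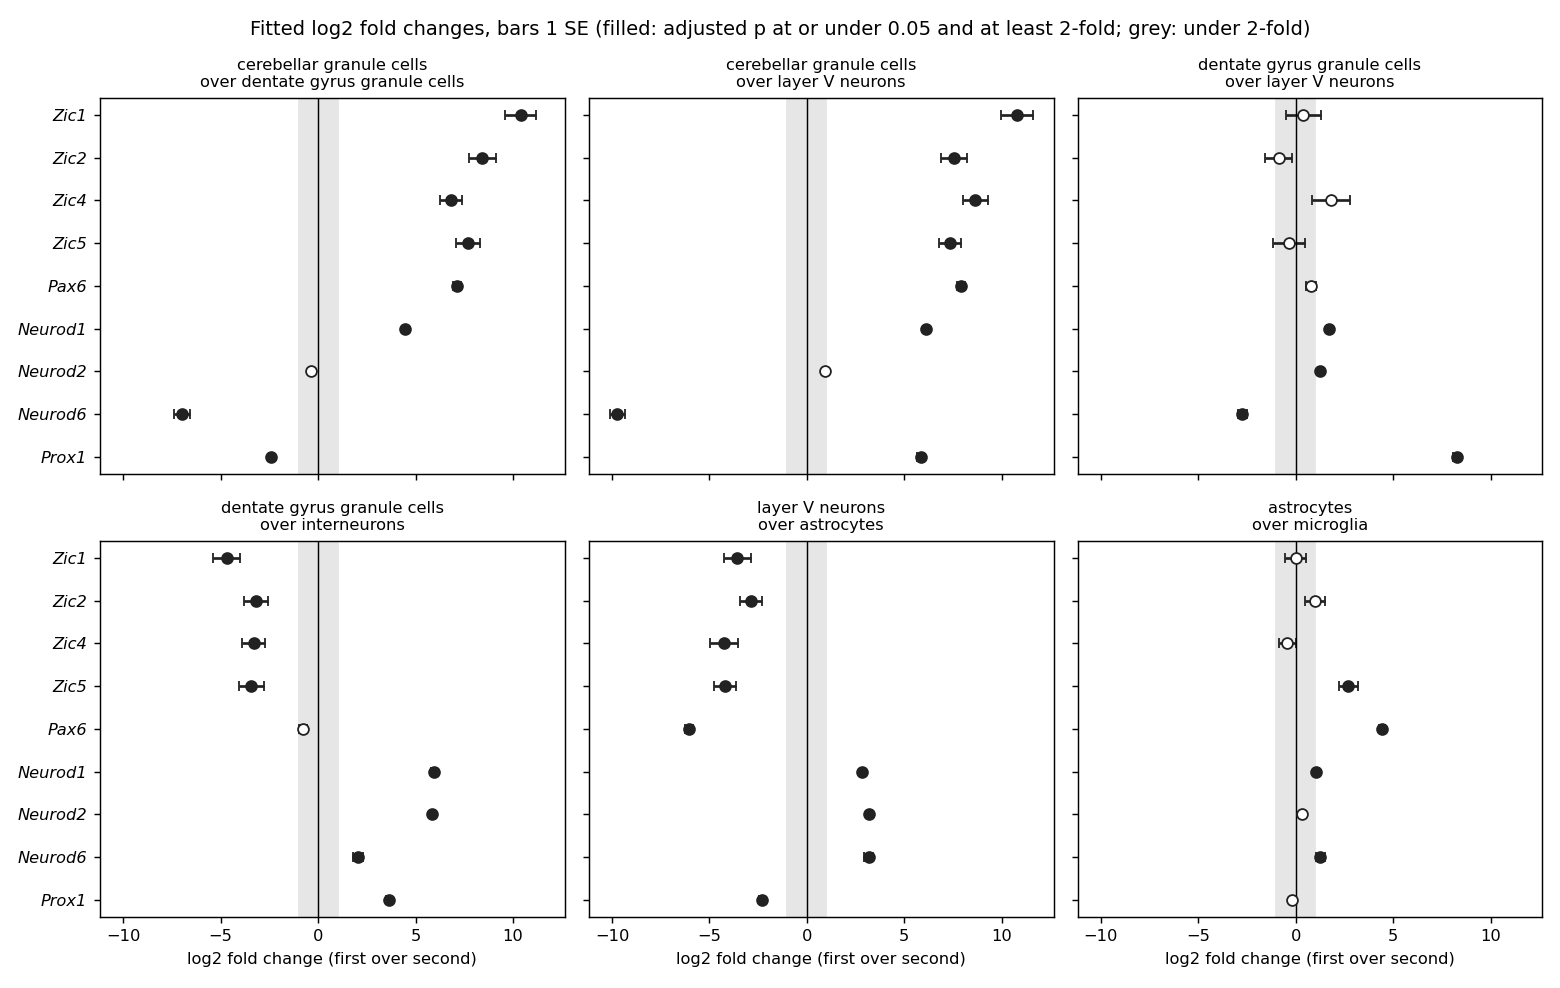
Fitted log2 fold changes of the 9 genes in the 6 comparisons, with bars of 1 SE. Filled points passed the adjusted p of 0.05 and 2-fold, and the grey band spans changes under 2-fold. The 4 Zic genes lie at 6.83 to 10.77 in both cerebellar comparisons, and Neurod6 lies below 0 in the 3 comparisons of the upper row.

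The plot of fold changes sets the 6 comparisons side by side. Error bars of the Zic genes were the widest in each panel, with SEs of 0.44 to 0.96, whereas those of Neurod1 and Neurod2 were 0.08 to 0.14.

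Those wide errors went with a single library. Interneuron replicate 3 held 2.16 TPM of Zic1 against 36.4 and 29.8 TPM in replicates 1 and 2, and it was lower by at least 13.8-fold for Zic1, 11.8-fold for Zic2, 10.8-fold for Zic5 and 5.57-fold for Zic4. The other members did not: Pax6, the Neurod genes and Prox1 stood in replicate 3 at values between or just beside those of replicates 1 and 2. Replicates 1 and 2 were each pooled from a male and a female mouse and replicate 3 from 2 males.

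Across the transcriptome this was a rare pattern. Of 10264 protein-coding genes at 5 TPM or more in replicates 1 and 2, 7 (0.0682%) were at least 5-fold above replicate 3 in both, and 3 of these were Zic1, Zic2 and Zic4, with Glp1r, Lbhd2, Ano2 and Prkcd the others. This list was drawn up after the values were seen. The interneuron markers summed to 3470, 3640 and 3510 TPM in replicates 1, 2 and 3, the oligodendrocyte markers to 2610, 2800 and 2610 TPM, the meningeal markers to 10.5, 10.8 and 10.2 TPM and the cerebellar granule cell markers to 34.2, 39.1 and 41.3 TPM. Sums that were lower in replicate 3 were those of forebrain excitatory neurons (714, 697 and 565 TPM), CA1 and CA3 pyramidal cells (91.4, 95.3 and 67.8 TPM) and adult-born neuroblasts (24.8, 26.0 and 17.1 TPM). The part of any of these in the Zic levels was not tested. Without replicate 3 the dentate gyrus was lower by more and with smaller errors, at -5.21 ± 0.22 for Zic1, -3.7 ± 0.26 for Zic2, -3.79 ± 0.21 for Zic4 and -3.92 ± 0.23 for Zic5. The mean interneuron levels without it were 33.1 TPM of Zic1, 25.2 TPM of Zic2, 8.21 TPM of Zic4 and 5.24 TPM of Zic5.

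In the dentate gyrus, replicate 3 was at least 2-fold above the others for Neurod6 alone among the 9 genes, at 42.4 TPM against 17.0 and 20.1 TPM, and its repeat library in batch 2 gave 43.7 TPM. It was 2.11 times the higher of the others, and 35 of 10222 genes (0.342%) were at least 2-fold above both. The largest ratios belonged to the Y-chromosome genes Ddx3y (942), Eif2s3y (170), Kdm5d (65.3) and Uty (20.8). Cux2 (2.74), Tshz2 (2.64) and Meis2 (2.05) were further down. All of these were named after their values were seen. The summed CA1 and CA3 pyramidal cell markers were 224, 271 and 303 TPM in replicates 1 to 3, of which Wfs1 gave 38.0, 60.6 and 117 TPM, while Fibcd1 (39.7, 50.7 and 43.2 TPM), Cpne4 (131, 141 and 125 TPM) and Bok (15.4, 17.9 and 17.3 TPM) did not rise with it. Of the 4 markers, 3 were highest in dentate gyrus granule cells and Bok in layer V neurons, none was at 0, and their part in the Neurod6 level was not tested. Replicate 3 is labelled male and the other two female.

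**Figure D3:**
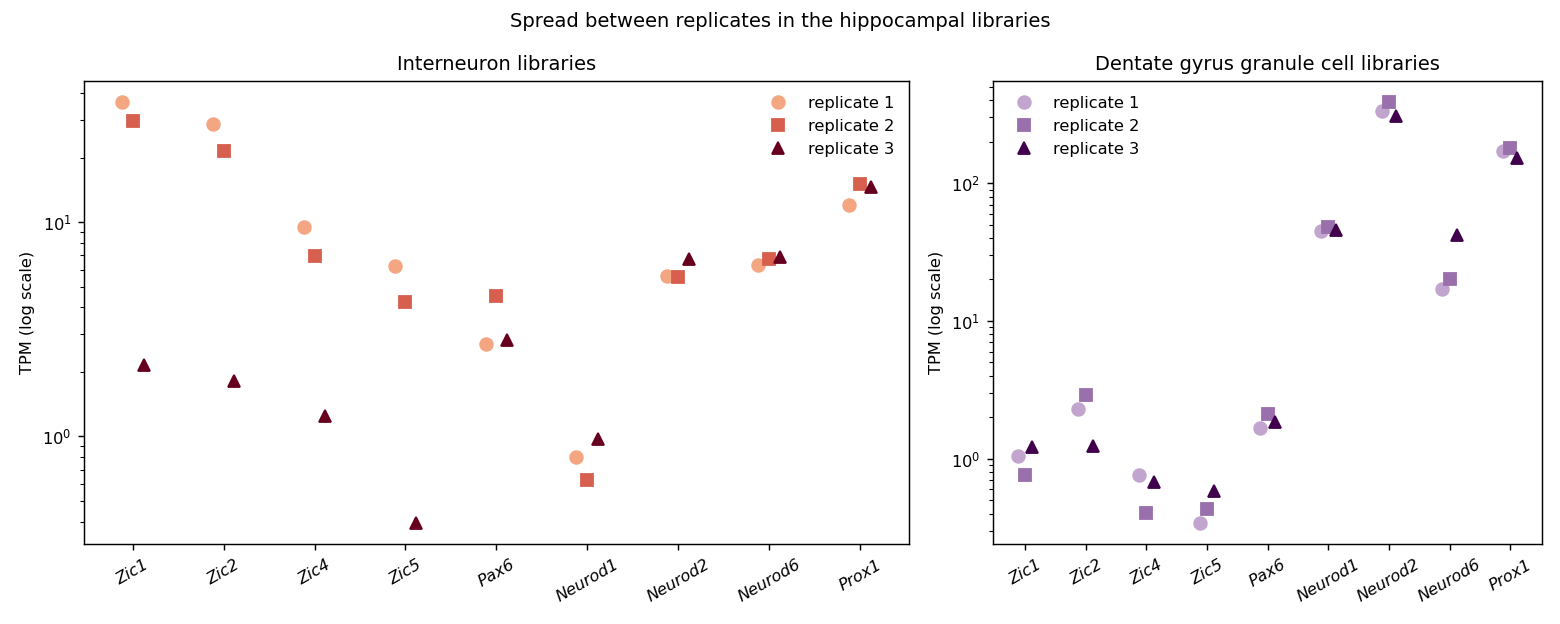
TPM on a log axis of the 9 genes in the 3 interneuron libraries (left) and the 3 dentate gyrus granule cell libraries (right), 1 symbol per replicate. Interneuron replicate 3 is low for all 4 Zic genes, and dentate gyrus replicate 3 is high for Neurod6.

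The plot of hippocampal replicates shows which members departed and which did not. In replicates 1 and 2 of the interneurons Zic1 and Zic2 were the most abundant of the 9 genes, and in replicate 3 both were under Prox1, the Neurod2 and Neurod6 values and Pax6. Prox1 lay between 12.1 and 15.1 TPM in the interneuron libraries and Neurod2 between 309 and 388 TPM in the dentate gyrus libraries.

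In the cortex, layer V neurons and astrocytes differed in all 9 genes. Layer V neurons had 3 higher, where 21.9% of all genes were, and 6 lower, where 25.6% were (median -2.86 against 0.01). The Neurod genes were the higher ones, at 2.84 ± 0.10 for Neurod1, 3.20 ± 0.12 for Neurod2 and 3.18 ± 0.23 for Neurod6. Pax6, which astrocytes are known to keep from their radial glial origin, was lower in layer V at -6.04 ± 0.20 (adjusted p = 7.7e-15). The Zic genes were lower at -2.86 to -4.26 and Prox1 at -2.30 ± 0.16. Within batch 2, where each type has 1 library that is assumed to vary like the other groups, Zic1 (-3.56, adjusted p = 0.074) and Zic2 (-2.82, adjusted p = 0.077) were no longer called.

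Astrocytes and microglia differed in fewer of the genes. Astrocytes had 4 higher, where 23.9% of all genes were, and 0 lower, where 20.4% were (median 1.00 against 0.08). Pax6 was higher by 4.42 ± 0.17 (adjusted p = 7.8e-14), Zic5 by 2.70 ± 0.48 (adjusted p = 6.5e-05), Neurod6 by 1.26 ± 0.24 and Neurod1 by 1.05 ± 0.13. Neurod1 was near the 2-fold limit, with 0.65 to 1.15 over the alternative settings, and its means were only 1.636 and 0.8594 TPM. Settings in which it fell short of 2-fold included limma on log2(TPM + 0.5) (0.65). They also included leaving out astrocyte replicate 2 (0.92), microglia replicate 1 (0.99) or 3 (0.80), or interneuron replicate 3 (0.95). Zic1 (0.00 ± 0.54), Zic2 (1.00 ± 0.50), Zic4 (-0.44 ± 0.44), Neurod2 (0.31 ± 0.11) and Prox1 (-0.18 ± 0.13) were not called. Cell type and batch coincide here too. Within batch 2 the 1 astrocyte library was assumed to vary like the other groups, with values of 4.34 for Pax6, 2.78 for Zic5, 1.35 for Neurod6 and 1.08 for Neurod1 (adjusted p 4.5e-07 to 0.014).

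The glial libraries also held markers of excitatory neurons. In astrocyte replicates 1, 2 and 3 the 3 forebrain excitatory markers (Slc17a7, Camk2a and Nrgn) summed to 1150, 1080 and 873 TPM, and replicate 3 was also lowest for Neurod1, Neurod2 and Neurod6. In microglia the sums were 562, 681 and 663 TPM, and replicate 1 was also lowest for Neurod2 and Neurod6, whereas Neurod1 was lowest in replicate 3 (0.735 TPM). No marker of the 3 was at 0 on average in either type, and their part in the glial Neurod levels was not tested. For the Zic genes in microglia, the 5 meningeal fibroblast markers summed to 410, 238 and 785 TPM in replicates 1 to 3. Their sums were 1.29 to 2.05 TPM in cerebellar granule cells, 70.9 to 78.2 TPM in astrocytes and 43.0 to 62.0 TPM in layer V neurons. They were 117 to 176 TPM in dentate gyrus granule cells and 10.2 to 10.8 TPM in interneurons. Mean Zic sums were 25.4 TPM in microglia, 1710 TPM in cerebellar granule cells and 38.7 TPM in astrocytes. They were 3.89 TPM in layer V neurons, 4.22 TPM in dentate gyrus granule cells and 49.7 TPM in interneurons. Microglia replicate 2 was lowest for the marker sum and for Zic1, Zic2 and Zic4, whereas Zic5 was lowest in replicate 1. Microglial Zic2 was highest in replicate 1 although the marker sum was highest in replicate 3. None of the 5 markers was at 0 on average in microglia, and their part in the microglial Zic levels was not tested.

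Transcript estimates added detail on which forms were bound. Zic1-201 carried a mean of 81.5% of Zic1 TPM in cerebellar granule cells (80.2 to 82.5%), 65.5% in interneurons, 44.1% in astrocytes (37.2 to 48.5%) and 33.7% in microglia (32.3 to 36.0%), so the cerebellar libraries did not overlap the glial ones. The non-coding Zic5-202 made up 5.07% of Zic5 TPM in cerebellar granule cells and 36.1% in astrocytes. Prox1-202 carried 92.1 to 99.0% of Prox1 on average in every cell type. These shares rest on how kallisto divided reads between overlapping transcripts.

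Pax6 has a short alternative exon, 5a, which inserts residues into the paired domain and alters its DNA binding. It spans 42 bases at chr2:105684751-105684792 (plus strand) and is held by 9 annotated transcripts, 5 of them in their coding sequence, while another 5 coding transcripts skip it. It is shown with 30 coding bases on either side because the measurement turns on it, with the exon in capitals and the flanking exons in lower case.
Pax6 exon 5a: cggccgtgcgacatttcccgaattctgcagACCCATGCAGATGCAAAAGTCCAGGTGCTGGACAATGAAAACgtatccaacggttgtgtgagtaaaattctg
Of the TPM in those coding transcripts, forms with the exon made up 26.2, 27.9 and 19.5% in cerebellar granule cells (mean 24.5 ± 4.44) and 47.9, 45.2 and 42.9% in astrocytes (45.3 ± 2.5). All 3 astrocyte libraries lay above all 3 cerebellar ones, by 20.8 percentage points between the means, and both cell types had ample Pax6. In microglia the share was 39.1, 39.3 and 31.7% and in interneurons 39.2, 55.4 and 36.3%. The dentate gyrus (27.1, 55.6 and 35.7%) and layer V values (10.3, 18.9 and 41.2%) spread too widely to be placed, as Pax6 stood at no more than 2.10 TPM there. For layer V replicate 1, the batch 2 repeat gave 63.6%. The exact two-sided permutation test of the exon 5a share between cerebellar granule cells and astrocytes, and of the Zic1-201 share likewise, gave p = 0.1 each (n = 3 and 3), raw and adjusted over both, which is the smallest value this design allows. Both shares were picked for it after their values were seen. 

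**Figure D4:**
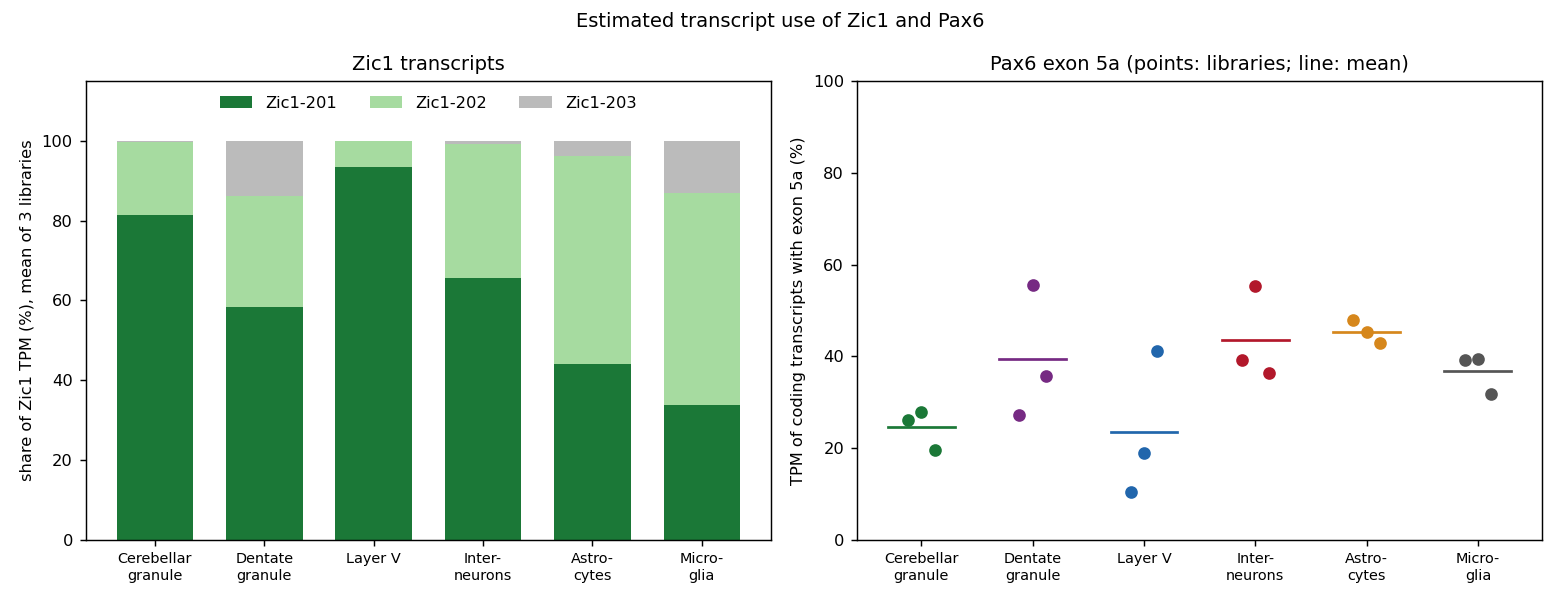
Left, mean share of the 3 Zic1 transcripts in Zic1 TPM per cell type (3 libraries each). Right, share of Pax6 coding TPM in transcripts with exon 5a, with points for libraries and lines for means. Zic1-201 held 81.5% in cerebellar granule cells and 33.7% in microglia, and the exon 5a share was 19.5 to 27.9% in cerebellar granule cells and 42.9 to 47.9% in astrocytes.

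The plot of transcript use also shows the low-level populations. The dentate gyrus and layer V bars of Zic1 describe a gene at 1.21 TPM or less, so their shares of 58.3% and 93.4% for Zic1-201 carry little weight.

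Of the relatives of these genes, 10 of 14 were tested, and Neurog3, Atoh1, Pax7 and Pax8 had too few counts. Between the granule cell types, 2 of the 10 were higher in the cerebellum and 5 lower, beside 14.2% and 27.5% of all genes (median -2.45 against -0.15). Atoh7 was among the higher ones (6.00, means 32.1 and 0.762 TPM), a proneural factor known from the retina. Neurog2 and Neurod4 were lower and listed at 0 in all 3 cerebellar libraries, with means of 0.136 and 0.053 TPM in the dentate gyrus. Against layer V neurons, 3 were higher and 4 lower in cerebellar granule cells, beside 17.1% and 29.3% of all genes. Between dentate gyrus and layer V, 2 were higher and 5 lower, beside 12.2% and 13.8%. The largest changes were in genes close to their floor, Bhlhe23 (-4.24, means 0.00527 and 0.114 TPM) and Neurod4 (-3.17, means 0.053 and 0.398 TPM).

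The E protein partners and the Id and Hes inhibitors of helix-loop-helix factors numbered 11, all tested. Between the granule cell types, 1 was higher in the cerebellum and 4 lower, beside 14.2% and 27.5% of all genes (median -0.43 against -0.15). The higher one was Id2 (2.40, means 264 and 52.3 TPM), whose protein binds E proteins and keeps them from DNA. The 4 lower ones included Id3 at -3.56, Hes1 at -3.47 and Id4 at -1.74. Against layer V neurons the counts were again 1 higher and 4 lower, beside 17.1% and 29.3% of all genes. Between dentate gyrus and layer V 2 were higher and 2 lower, beside 12.2% and 13.8%, with Id2 at -2.65 (means 52.3 and 271 TPM) and the E protein gene Tcf12 at 1.71.

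Of 28 other transcription factors of granule neuron lineages, 8 were higher and 14 lower in cerebellar than in dentate gyrus granule cells, beside 14.2% and 27.5% of all genes (median -0.96 against -0.15). Barhl2, a rhombic lip factor, differed by 13 (means 114 and 0.0144 TPM) and En2, which patterns the midbrain and hindbrain, by 11.41 (means 182 and 0.0691 TPM). The forebrain factors Emx1 (-11.44, means 0.00701 and 29.6 TPM) and Fezf2 (listed at 0 in the cerebellar libraries, mean 14.7 TPM in the dentate gyrus) were lower. Against layer V neurons, 12 were higher and 13 lower in cerebellar granule cells, beside 17.1% and 29.3% of all genes. Dentate gyrus granule cells had 8 higher and 7 lower than layer V neurons, beside 12.2% and 13.8% of all genes, led by Emx2 (3.63, means 14.6 and 1.12 TPM), which is needed for the dentate gyrus to form, and Fezf2 (-2.82, means 14.7 and 85.5 TPM), which specifies layer V projection neurons.

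**Figure D5:**
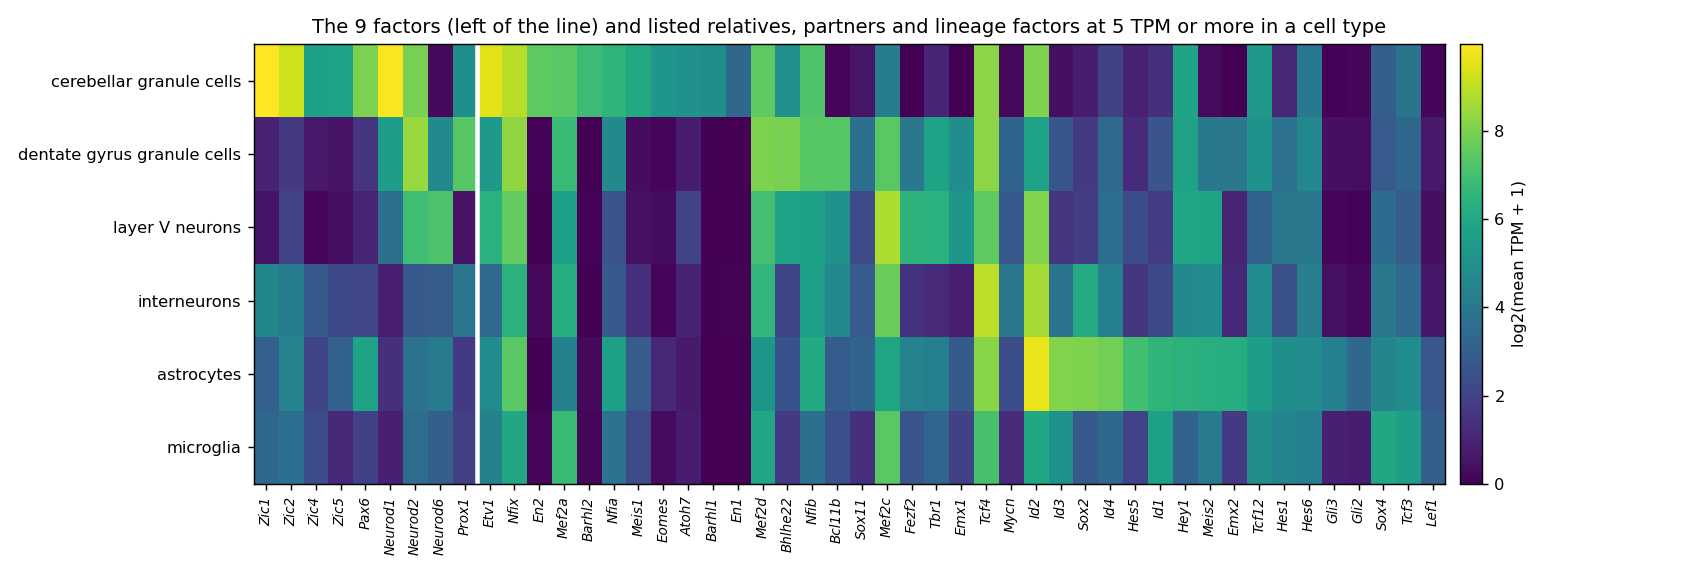
Mean level per cell type, as log2(mean TPM + 1), of the 9 genes (left of the white line) and of the 39 of 53 listed relatives, partners and lineage factors that reached 5 TPM in a cell type. Rows are the 6 cell types. Zic1 and Neurod1 (means of 1004 and 937.6 TPM) are brightest in the cerebellar row, followed by Etv1 (728 TPM) and Zic2 (604.2 TPM).

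The map of factor levels places the 9 genes beside these lists. Pax6, at a mean of 258.2 TPM in cerebellar granule cells, stood close to Id2 at 264 TPM, and Barhl2 and En2 at 114 and 182 TPM were above Zic4 and Zic5.

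Likeness was measured as Pearson's r of log2 levels over the 18 libraries with 12787 protein-coding genes outside the lists, as a description only, because the libraries fall into 6 cell types. The gene most like Zic1 was Mcam (r = 0.963), then Creb5 and Tprn. Mcam was also most like Zic4 (0.9645), while Mindy1 was most like Zic2 (0.9515) and Zfp521 most like Zic5 (0.9779). Pax6 was followed by Slc22a4 (0.978), Zfp521 and Cdc42bpg, Neurod1 by Naa50 (0.9798), Mbd4 and Zbtb18, and Neurod2 by Ube2t (0.9757), Syne1 and Bdnf. Neurod6 was followed by Cobl (0.9893), Lmo4 and Epop, and Prox1 by Wdr11 (0.9851), Gss and Dhodh. Pearson's r takes no account of the size of a change. Means per cell type ran from 16.2 to 32.5 TPM for Wdr11, beside 0.4511 to 167.0 TPM for Prox1. Naa50 ran from 38.3 to 114 TPM, beside 0.8005 to 937.6 TPM for Neurod1. Cobl spanned more, from 0.047 to 68.8 TPM, beside 0.1999 to 144.8 TPM for Neurod6. Among the members themselves, r was 0.993 between Zic1 and Zic4, 0.977 between Zic1 and Zic2, 0.857 between Neurod1 and Neurod2 and -0.888 between Zic1 and Neurod6.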

How the data were processed

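Libraries were made from anti-HA immunoprecipitates of tagged ribosomes. Per the labels and the study's methods, reads were trimmed by the authors in cutadapt 3.5, and kallisto 0.46.2 gave transcript levels against GENCODE M24 mouse transcripts (GRCm38). The deposited tables give estimated counts and TPM per transcript, and strand use is not given in the sources used here. Both were summed over the transcripts of a gene symbol, and replicates sequenced in both batches entered once, by their batch 1 library. Rounded gene sums of estimated counts of 18 libraries (38270477 to 97992957 over all 22) were tested in 1 fit with edgeR 4.0.16 (R 4.3.3) by its quasi-likelihood test after TMM, for genes with 10 counts in at least 3 libraries, with Benjamini-Hochberg adjustment. The study named sleuth, which was not used here. A gene was called at an adjusted p of 0.05 or less and at least 2-fold. Fold changes are on log2 counts, which do not correct for transcript length, and levels are TPM. p-values measure the spread between mice or pools of mice. Alternatives were upper-quartile factors, other filters, protein-coding transcripts only, batch 2 libraries, batch terms, a replicate block, limma 3.58.1 on log2(TPM + 0.5), DESeq2 1.42.0 and leaving out each replicate.

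The 9 genes were all named. From the lists, up to 4 called genes per list and comparison with the largest absolute log2 fold change could be named, and 3 most alike genes per member. A few genes are not reported here and were left out of the lists. Members and lists were chosen with earlier results of these data known. Positions are from the GENCODE M21 annotation of GRCm38, in which all 51 member transcripts matched by name and length. The sequences shown were read from the transcript sequences of that release. The main fit was tried on simulated counts, drawn with a common spread for all genes and cell types. That check does not cover a library that departs from its replicates.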

Additional observations from a re-analysis of the deposited data

How the results depend on the processing

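Of 945 alternative values of the members' log2 fold changes, 899 kept their direction and their side of the adjusted p of 0.05, 19 lost it, 12 gained it and 15 changed sign. All sign changes were in values near 0. Zic5 between dentate gyrus and layer V (-0.35) was 0.08 within batch 2 and 0.22 with limma on log2(TPM + 0.5). Zic1 between astrocytes and microglia (0.00) was -0.12 with upper-quartile factors, -0.04 with filterByExpr, -0.09 with protein-coding transcripts only, -0.11 with batch 2 libraries, -0.02 with a batch term, -0.06 within batch 2, -0.27 with limma, -0.06 with DESeq2, -0.10 without interneuron replicate 3, and -0.19 to 0.13 when each replicate was left out. The cause was not tested. Counts of members called higher were 7 to 8 between cerebellar granule cells and layer V, 2 to 4 between dentate gyrus and layer V and 3 to 5 between astrocytes and microglia, and all 9 genes kept their leading cell type in the alternatives run. Low counts limit the Zic genes and Pax6 in the dentate gyrus and layer V, and Neurod6 in the cerebellum.

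Replicate numbers did not pair the samples, with correlations of same-numbered deviations of -0.0422 to 0.103. With the replicate number as a block, no member call changed, and the calls over all genes in the 6 comparisons, in the order reported, were 8680, 9650, 5368, 5779, 9856 and 9175, against 8708, 9666, 5433, 5862, 9904 and 9238 without it.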

Other observations

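Of the 11 partners and inhibitors, layer V neurons had 8 lower and 0 higher than astrocytes did, beside 25.6% and 21.9% of all genes. The 8 were led by Id3 (-7.39, means 1.86 and 273 TPM), Id1 (-5.32, means 2.33 and 91.4 TPM), Hes5 (-5.04, means 4.16 and 123 TPM) and Id4 (-4.33, means 11.4 and 230 TPM). They also included the E protein genes Tcf3 (-2.17) and Tcf12 (-2.51), named after their values were seen. Against microglia, 6 were higher and 0 lower in astrocytes, beside 23.9% and 20.4% of all genes, with Hes5 at 5.52 and Id4 at 4.78. Of the 28 lineage factors, 16 were higher and 3 lower in astrocytes than in microglia, and 8 were higher and 12 lower in layer V neurons than in astrocytes. Those higher in astrocytes than in microglia included Sox2 (5.52, means 260 and 6.00 TPM), a factor of neural stem cells and astroglia, and Emx2 (5.28, means 72.7 and 2.11 TPM). Both comparisons share the astrocyte libraries.

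In the hippocampus, Sox2 was lower in dentate gyrus granule cells than in interneurons (-4.89, means 2.25 and 69.9 TPM), as was Id2 (-2.87, means 52.3 and 399 TPM), while Bhlhe22 was higher (6.23, means 242 and 3.28 TPM), as was Tbr1 (5.80, means 52.6 and 1.35 TPM), a factor of glutamatergic neurons. Oligodendrocyte markers summed to 2610 to 2800 TPM in the interneuron libraries and 279 to 400 TPM in the dentate gyrus libraries, and their part in these differences was not tested.

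Layer V replicate 1 was labelled female in batch 1 and male in batch 2, and Xist stood at 2.45 and 2.13 TPM in those libraries.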
